A study of Homo sapiens with 5 samples.

Results

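The ADAM and ADAMTS genes encode metalloproteases that cut proteins at the cell surface and in the extracellular matrix, and the question here was at which of their promoters the histone demethylase PHF8 was found in melanoma cells. Members were all protein-coding genes of GENCODE release 44, lifted to GRCh37, with a symbol of ADAM or ADAMTS followed by a number, which gave 39 genes (20 ADAM and 19 ADAMTS) of 20162 protein-coding genes. PHF8 was bound in all 3 replicates at the promoters of 18 of the 39 (46.2%, 95% Wilson interval 31.6 to 61.4), against a background of 60.2% of all protein-coding genes, and had no promoter peak in any replicate at the other 21. No member had a peak in only some of the replicates. Among the ADAMTS genes with a CpG-island-like promoter 6 of 16 were bound, beside 79.5% of all protein-coding genes of that class. The bound promoters of the family mostly carried weak peaks. Their mean strength percentile was 28.8 ± 2.80 (SD, n = 3 replicates), beside 51.0 over all bound protein-coding genes.

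The samples came from the established human melanoma line SKMEL-147. PHF8 was mapped by ChIP-seq, the sequencing of DNA fragments that an antibody pulls down with the protein bound to them, in 3 replicates (A, B1 and B2), and 2 libraries of input chromatin (A and B) enter only as the control of the peak caller. All 3 ChIP libraries form 1 group with no second condition, from 1 cell line and 1 antibody; the series describes a model of PHF8 loss made with sgRNAs in this line, and the labels of the ChIP libraries name no guide. Nothing in the labels says whether the replicates were separate cultures, so the spread between them may be technical. B1 and B2 share a letter with 1 input while A has its own, so they may not be independent of each other, and every SD over n = 3 counts them as separate replicates. The lists held 20120 to 21506 peaks. Read totals are unknown here, but the number of fragments at a summit could be recovered from the deposited values and was at least 8, 8 and 10 for A, B1 and B2, with medians of 54, 39 and 40. Weaker binding was not detectable at this depth, so unbound means only that no peak was listed.

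ADAM proteins are mostly anchored in the plasma membrane, where the catalytic members release the outer part of other membrane proteins, among them growth factor precursors, Notch receptors and adhesion molecules. A number of ADAMs have lost the zinc-binding site and act in adhesion, and a further set is made in the male reproductive tract. ADAMTS proteins are secreted, carry thrombospondin repeats and cut matrix proteoglycans, procollagens or single substrates such as von Willebrand factor. PHF8 docks with its PHD finger on the trimethylated histone H3 of active promoters and removes methyl groups that are linked to silencing. A promoter was taken here as the sequence within 1 kb of any annotated transcription start site (TSS) of a gene, and a gene was bound when a listed peak overlapped such a window in every replicate. A TSS was called CpG-island-like when, over the 250 bp on either side, the GC content reached 50% and the CpG ratio (CpG dinucleotides observed, divided by the number that the C and G content predicts) reached 0.6. A gene counted as CpG-island-like when any of its TSSs did.

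To show how far base composition and binding parted at these genes, the sequence upstream of the canonical TSS is given for the strongest bound members, the weakest bound member and for unbound members at both ends of the CpG range. Each is 120 bases of GRCh37 without annotated exons, written on the strand of the gene with CpG dinucleotides in capitals. The first pair, at chr3:64673677-64673796 and chr15:59041991-59042110 (both on the minus strand), belong to the members with the highest strength percentiles. The peak of ADAMTS9 covered its whole stretch in 3 of 3 replicates, and that of ADAM10 reached only the end nearest the TSS, with most of the stretch outside it in B1 and B2.
ADAMTS9: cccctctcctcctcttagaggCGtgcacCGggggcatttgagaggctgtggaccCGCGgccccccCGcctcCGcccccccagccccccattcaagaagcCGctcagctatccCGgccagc
ADAM10: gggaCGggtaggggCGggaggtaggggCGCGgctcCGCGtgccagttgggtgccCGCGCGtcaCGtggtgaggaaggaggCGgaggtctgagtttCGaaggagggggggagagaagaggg
The next, at chr5:64777748-64777867 (minus strand), belongs to the bound member with the lowest strength percentile, and a peak reached it in 1 replicate.
ADAMTS6: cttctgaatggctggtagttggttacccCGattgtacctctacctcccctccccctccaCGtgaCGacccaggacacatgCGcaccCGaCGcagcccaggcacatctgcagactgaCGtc
The unbound members with the highest CpG ratios at any TSS, at chr15:100882211-100882330 and chr5:178772463-178772582 (both on the minus strand), had 0 replicates with a peak over them. For ADAMTS17 the highest ratio, 1.02, was at a later TSS, and near the canonical TSS used here it reached 0.875.
ADAMTS17: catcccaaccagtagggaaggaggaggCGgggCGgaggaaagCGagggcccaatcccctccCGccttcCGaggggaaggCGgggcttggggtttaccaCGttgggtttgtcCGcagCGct
ADAMTS2: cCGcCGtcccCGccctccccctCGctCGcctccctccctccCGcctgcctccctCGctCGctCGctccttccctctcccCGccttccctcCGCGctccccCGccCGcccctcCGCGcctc
The last, at chr14:71001733-71001852 (minus strand), comes from the unbound member with the lowest CpG ratio and was added after the values were seen.
ADAM20: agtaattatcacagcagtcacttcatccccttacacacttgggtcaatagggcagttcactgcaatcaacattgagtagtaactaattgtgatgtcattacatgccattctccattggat
The unbound ADAMTS2 and ADAMTS17 held 16 and 9 CpG dinucleotides in these bases, the strongly bound ADAMTS9 and ADAM10 held 8 and 12, the weakly bound ADAMTS6 held 7, and ADAM20 held 0. For comparison, 93.3% of the 19881 protein-coding genes with a tagged canonical transcript had at least 1 CpG in the 120 bases before its TSS, with a median of 10. The medians were 10.5 over the 18 bound and 9 over the 21 unbound members, so the number of CpG dinucleotides directly before the TSS hardly separated them. The stretches shown for ADAM10, ADAMTS17 and ADAM20 lie 84, 30 and 11 bases further upstream, clear of exons, so their counts are from shifted positions.

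Among the ADAM genes, 10 of 20 were bound (50%, interval 29.9 to 70.1). Those bound were ADAM9, ADAM10, ADAM11, ADAM12, ADAM15, ADAM17, ADAM19, ADAM21, ADAM22 and ADAM23, and the unbound ones were ADAM2, ADAM7, ADAM8, ADAM18, ADAM20, ADAM28, ADAM29, ADAM30, ADAM32 and ADAM33. Of the 13 ADAM genes with a CpG-island-like TSS, 9 were bound (69.2%, interval 42.4 to 87.3), against 79.5% of the 14591 protein-coding genes of that class. The 4 exceptions were ADAM8, ADAM30, ADAM32 and ADAM33. Without such a TSS, 1 of 7 was bound (ADAM21), against 9.59% of 5571 genes.

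Among the ADAMTS genes, 8 of 19 were bound (42.1%, interval 23.1 to 63.7), namely ADAMTS1, ADAMTS3, ADAMTS4, ADAMTS5, ADAMTS6, ADAMTS7, ADAMTS9 and ADAMTS12. The unbound ones were ADAMTS2, ADAMTS8, ADAMTS10, ADAMTS13, ADAMTS14, ADAMTS15, ADAMTS16, ADAMTS17, ADAMTS18, ADAMTS19 and ADAMTS20. All of these but ADAMTS13 had a CpG-island-like TSS, and the bound share of that class was 6 of 16 (37.5%, interval 18.5 to 61.4) beside the same 79.5%. The other class was small, with 2 of 3 bound (ADAMTS4 and ADAMTS6) beside 9.59%. The intervals treat the genes as independent draws, which members of a family are not, and no test was made on the list.

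**Figure D1:**
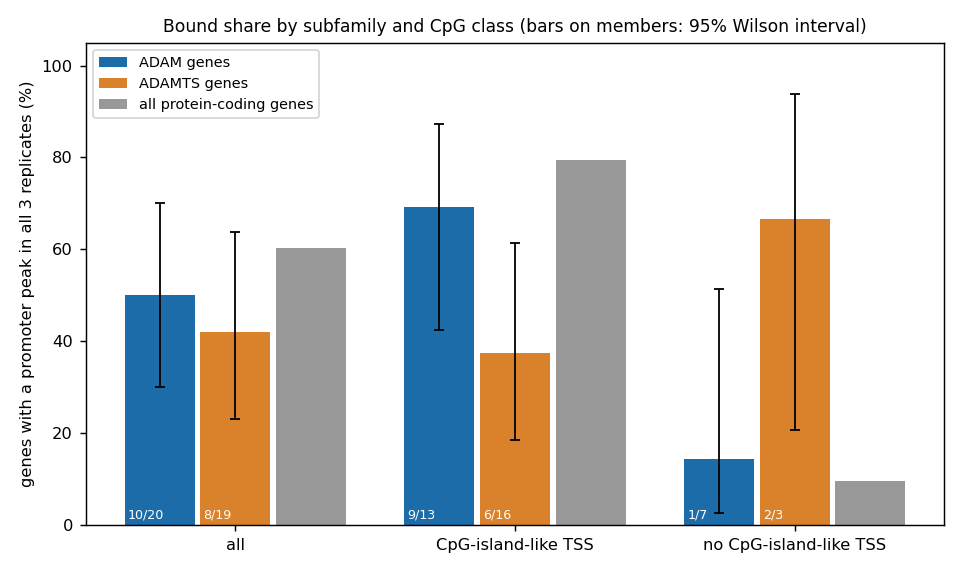
Share of genes with a PHF8 promoter peak in all 3 replicates (y axis, %) for ADAM genes, ADAMTS genes and all protein-coding genes (grey), over all genes and by CpG class; lines on the members are 95% Wilson intervals and the fractions give bound of all. In the CpG-island-like class the ADAMTS bar stands at 37.5%, the ADAM bar at 69.2% and the grey bar at 79.5%.

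The CpG ratio itself was alike in bound and unbound members. Its median at the TSS with the highest ratio was 0.863 (0.237 to 1.15) over the bound members and 0.801 (0 to 1.02) over the unbound ones. Over all protein-coding genes the bound and unbound medians lay much further apart, at 0.890 and 0.447. A CpG-island-like TSS was present at 83.3% of bound and 66.7% of unbound members, compared with 95.6% and 37.2% of bound and unbound genes overall. The family as a whole did not differ in this feature, with 74.4% of members and 72.4% of protein-coding genes in the CpG-island-like class.

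The gap opened at the highest ratios. Between 0.8 and 1, 9 of 19 members were bound against 82.8% of protein-coding genes, and between 0.6 and 0.8, 4 of 7 against 65.0%. At ratios of 1 or more, ADAM9 and ADAM12 were bound and ADAMTS17 was not, beside 88.5%. Below 0.6 the counts were 2 of 6 beside 19.6%, 1 of 3 beside 5.19% and 0 of 1 beside 0.977%, in steps of 0.2. GC content did not mark the unbound genes either, since ADAMTS2 and ADAMTS17, at 79.8% and 78.4%, were as GC-rich as the richest bound member, ADAM11, at 78.4%.

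**Figure D2:**
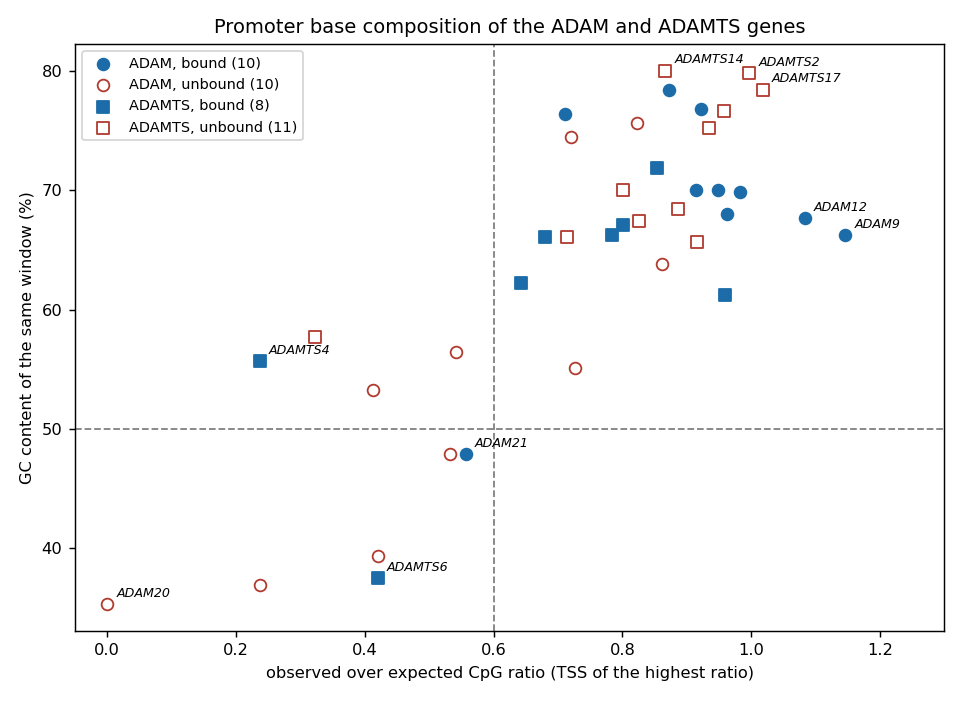
CpG ratio, observed over expected (x axis), and GC content in % (y axis) of the 250 bp on either side of the TSS with the highest ratio, for each of the 39 genes; filled blue points are bound and open red points unbound, circles ADAM and squares ADAMTS, and dashed lines mark the limits of the CpG-island-like class. Filled and open points mix in the upper right field, and ADAMTS4, ADAM21 and ADAMTS6 are the filled points outside it.

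Of the 9 catalytic ADAM genes not confined to the male reproductive tract 6 were bound (66.7%, beside 60.2% of all protein-coding genes), and of the 8 with a CpG-island-like TSS also 6 (75%, beside 79.5%), shares near the background. All of the 6 but ADAM12 carried stronger peaks than every ADAMTS gene other than ADAMTS9. Strength was read from the fold enrichment over the local background at the summit of the strongest promoter peak. For ADAM9 that peak lay at the neighbouring gene TM2D2. The other ADAM9 peak, with 15.6, 12.6 and 11.5 in A, B1 and B2, was below that of ADAMTS1 (16.8, 13.0 and 10.2) in A and B1. Because fold enrichment ran higher on the whole in replicate A, it was also expressed as a percentile among the protein-coding genes with a promoter peak in that replicate, a higher percentile meaning a stronger peak.

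ADAM10, the alpha-secretase that cuts Notch receptors and the amyloid precursor protein, had fold enrichments of 46.0, 22.4 and 20.1 in replicates A, B1 and B2. Its mean percentile of 67.2 ± 11.7 (SD, n = 3) was above the middle of the bound genes in all replicates. The peak (chr15:59040928-59042057 in A) had its summit 12 to 16 bp upstream of a TSS, in an untranslated exon of other transcripts. Further upstream, at 407 to 438 bp, lay a separate peak with fold enrichments of 30.4, 9.57 and 7.91, and a divergent long non-coding RNA, ENSG00000286897, starts 280 to 317 bp from the main summit.

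ADAM17, which sheds tumour necrosis factor and several ligands of the epidermal growth factor receptor, carried a pair of peaks of like height on either side of its TSS. The upstream peak (chr2:9696032-9696556 in A) had fold enrichments of 40.5, 20.9 and 19.4 in A, B1 and B2, and the downstream peak 39.2, 16.5 and 16.1. The summit of the former was 280 to 295 bp upstream of the nearest ADAM17 TSS and 229 to 244 bp from the start of the long non-coding RNA ENSG00000271855. By its higher peak the gene ranked at a mean percentile of 60.4 ± 7.47, again above the middle in every replicate.

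ADAM15 and ADAM19 were close to ADAM17 in strength. ADAM15, a disintegrin that binds integrins, had fold enrichments of 41.4, 21.0 and 20.7 (percentile 63.1 ± 6.99) in a peak 1250, 1538 and 1334 bp wide. ADAM19, a protease with a role in heart development that can shed neuregulin, had 37.5, 18.9 and 17.7 (percentile 53.0 ± 7.89) in a single peak with its summit 33 to 84 bp downstream of the TSS. The latter lay above the middle of the bound genes in A and just below it in B1 and B2, at 62.0, 49.4 and 47.5.

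At ADAM9, a widely expressed sheddase, the promoter is shared. Its stronger peak had fold enrichments of 38.2, 13.8 and 16.1, and its percentile of 44.3 ± 17.7 had the widest spread of all members, from 28.8 in B1 to 63.6 in A. That summit was 353 to 367 bp upstream of ADAM9 and only 82 to 96 bp from the TSS of TM2D2, a coding gene on the opposite strand. A weaker peak inside ADAM9 and downstream of its TSS had values of 15.6, 12.6 and 11.5. The summit of the stronger peak thus lay inside TM2D2, past its TSS, and the strength given for ADAM9 was that of this peak. Reads cannot tell which gene a peak near divergent promoters belongs to. ADAM9 still counted as bound with only the peaks nearest to itself.

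ADAM12, whose product cuts insulin-like growth factor binding proteins, was bound more weakly, although its CpG ratio of 1.08 was among the highest of the family. Fold enrichment was 11.3, 8.22 and 8.15 in A, B1 and B2, a percentile of 9.68 ± 1.23. The peak (chr10:128076371-128077243 in A) was of ordinary width, 873, 1048 and 607 bp, with 28, 25 and 26 fragments at the summit. The 3 genes of this group without a promoter peak were ADAM8, found on white blood cells, ADAM28, which is made by lymphocytes, and the asthma-associated ADAM33. ADAM8 and ADAM33 had CpG ratios of 0.720 and 0.823, and ADAM28 had 0.421.

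All 3 ADAM genes of brain and nerve that lack the zinc-binding site were bound (interval 43.9 to 100), and all 3 are CpG-island-like, a class in which 79.5% of genes were bound. ADAM22 and ADAM23 were of middling strength and ADAM11 at the bottom of the range. ADAM22 and ADAM23, neuronal receptors for the secreted LGI proteins, had percentiles of 26.9 ± 5.95 and 27.6 ± 5.83. Fold enrichment was 24.9, 14.0 and 11.2 at ADAM22, with the summit within 13 bp of a TSS, and 26.1, 12.2 and 12.9 at ADAM23, with the summit 103 to 166 bp downstream. At ADAM11 the strongest peak had only 8.96, 4.09 and 5.99, a percentile of 3.73 ± 2.65. It was not the same peak in all replicates, since in B2 a peak at the second promoter of ADAM11 (chr17:42852797-42852958, in an intron of longer transcripts) reached 5.99 and that at the first 5.91. The second promoter was CpG-island-like as well, with a ratio of 0.704.

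Of the 8 ADAM genes known from testis or epididymis, 1 was bound (12.5%, beside 60.2% of all protein-coding genes), and the peak lay at a neighbour. By class it was 1 of 6 without a CpG-island-like TSS, beside 9.59%, and 0 of 2 with one, beside 79.5%. ADAM21 had fold enrichments of 15.2, 10.6 and 11.2 (percentile 17.2 ± 3.47), with summits 127 to 183 bp upstream of its first annotated TSS. The same summits were 60, 4 and 9 bp from the TSS of COX16, a gene for the assembly of cytochrome c oxidase on the opposite strand. The canonical TSS of ADAM21, further inside the gene, had no peak, and the gene lost its status both with canonical transcripts alone and with only the peaks nearest to the gene itself. The unbound ones were the sperm surface protein ADAM2 with ADAM18, ADAM20, ADAM29, ADAM30, ADAM32 and the epididymal ADAM7. ADAM30 and ADAM32 had CpG-island-like TSSs, at ratios of 0.726 and 0.861, and the others did not.

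The strongest peak of the whole family was at ADAMTS9, a proteoglycanase that cuts versican and aggrecan. Fold enrichments there were 43.6, 26.6 and 25.3 for A, B1 and B2, with 131, 94 and 93 fragments. The percentiles were close together at 75.7, 77.7 and 77.9 (mean 77.1 ± 1.26), above those of ADAM10 in B1 and B2 but not in A. The peak (chr3:64673178-64674339 in A) lay outside the gene, with its summit 279 to 310 bp upstream of the first TSS. A separate peak in the first part of the gene had fold enrichments of 31.2, 14.6 and 14.5. Its summits were 833 to 870 bp downstream of a later, CpG-island-like TSS, which the peak did not reach in B2. The start of the long non-coding RNA ADAMTS9-AS2 was closer to them than any ADAMTS9 TSS.

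The other bound proteoglycanase genes were far weaker. ADAMTS1, which cuts versican and aggrecan and is induced by inflammation, had fold enrichments of 16.8, 13.0 and 10.2 (percentile 19.4 ± 5.16) at a summit 86 to 136 bp downstream of the TSS, and its short locus carried 5, 4 and 3 separate promoter peaks. ADAMTS5, the main aggrecanase of mouse cartilage, had 8.57, 7.84 and 4.93 (percentile 5.53 ± 3.61), split over a peak upstream and a peak downstream of the TSS that took turns as the stronger. ADAMTS4, the other classical aggrecanase, had 8.62, 5.23 and 9.13 (percentile 7.18 ± 5.32).

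ADAMTS4 was bound without a CpG-island-like TSS, with a CpG ratio of 0.237 at a GC content of 55.7%. Its summits were 94 to 148 bp inside the gene, and it was still bound with only the peaks nearest to the gene itself. ADAMTS8, ADAMTS15 and ADAMTS20, which also act on proteoglycans, had no promoter peak despite ratios of 0.916, 0.714 and 0.801. So 4 of the 7 proteoglycanase genes were bound (57.1%, near the 60.2% of all protein-coding genes). With a CpG-island-like TSS it was 3 of 6, beside 79.5%.

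The procollagen N-propeptidases remove the amino-terminal propeptide of fibrillar collagens, or, for ADAMTS3, chiefly act on a growth factor of lymphatic vessels, VEGF-C. ADAMTS3 was the bound one of the 3, all of the CpG-island-like class, in which 79.5% of protein-coding genes were bound. Its fold enrichments of 8.96, 10.2 and 6.24 (percentile 9.05 ± 6.11) came from summits inside the gene, 17 to 385 bp upstream of an internal TSS. Near the first TSS each replicate had a weaker peak, downstream of it in A and B2 (5.84 and 4.27) and upstream in B1 (4.09). ADAMTS2 and ADAMTS14 had none, with CpG ratios of 0.997 and 0.867.

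Both genes for proteases of cartilage oligomeric matrix protein were bound, and both are of the CpG-island-like class, where 79.5% of genes were bound. ADAMTS7 had fold enrichments of 16.4, 10.6 and 11.2 (percentile 17.6 ± 2.28) with summits 229 to 266 bp upstream of its TSS. The nearest TSS of another gene, that of MORF4L1 on the opposite strand, lies inside ADAMTS7, 1206 to 1243 bp from the summit. ADAMTS12 had 13.0, 6.17 and 7.13 (percentile 7.85 ± 2.70), within 62 bp of its TSS. ADAMTS13, the plasma protease that cuts von Willebrand factor, was unbound and had a CpG ratio of 0.322.

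ADAMTS6 and ADAMTS10 are a pair of related proteases that act on fibrillin microfibrils, and they parted against their CpG class. ADAMTS6, with a ratio of 0.420 and a GC content of 37.5%, was bound and ADAMTS10, with 0.935 and 75.2%, was not. The peaks at ADAMTS6 were the weakest of any bound member, with fold enrichments of 7.31, 3.94 and 3.95, percentiles of 3.87, 0.559 and 0.542, and 21, 13 and 17 fragments. Their summits were 185 bp upstream of the first TSS in A and 200 bp downstream of it in B2. In B1 the summit was 647 bp downstream of a later TSS, and so further from the first. At a minimum fold enrichment of 4 the gene had a peak in 1 replicate only. A peak over the same stretch of the first exon was listed in all 3 replicates, at 6.65, 3.04 and 3.95. The remaining pairs, ADAMTS16 with ADAMTS18 and ADAMTS17 with ADAMTS19, had 0 of 4 bound, beside 79.5% of genes of their class. All 4 had CpG-island-like TSSs, at ratios of 0.825 to 1.02.

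**Figure D3:**
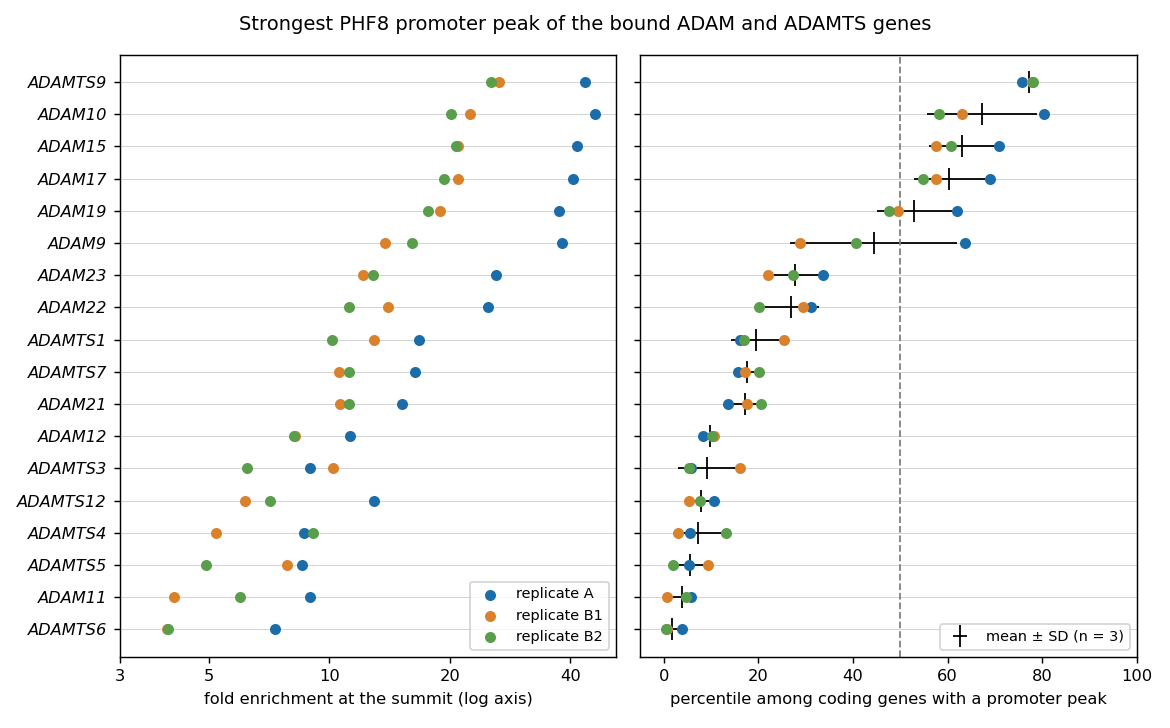
Fold enrichment at the summit of the strongest promoter peak (left, log axis) and its percentile among the protein-coding genes with a promoter peak in the same replicate (right) for the 18 bound genes; points are replicates A, B1 and B2, black marks the mean ± SD (n = 3) and the dashed line the middle of the bound genes. ADAMTS9, ADAM10, ADAM15 and ADAM17 lie right of the line in every replicate, and 13 of the 18 means lie left of it.

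Placed in order, the members fell from ADAMTS9 at 77.1 to ADAMTS6 at 1.66, and neighbours in that order could hardly be told apart. In 1 of the 17 neighbouring pairs, ADAM21 over ADAM12, the 3 values of the higher gene all lay above those of the lower one. The order was nevertheless much the same in each replicate, with a Pearson correlation of 0.936 to 0.964 between replicates over the 18 genes, which share their promoters and base composition. A higher CpG ratio, taken at the TSS where it was highest, went with a stronger peak among the 18 (r = 0.431, Spearman's rho = 0.521). At ADAMTS5 and ADAMTS7 that TSS itself had no peak. Over all 12139 bound protein-coding genes the values were lower (r = 0.198, rho = 0.163), a difference that was not tested. These correlations are across genes, which are not replicates.

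Relative to bound genes in general the members had weak, narrow peaks. The mean percentile of 28.8 ± 2.80 compares with 51.0 ± 0.621 over all bound protein-coding genes and 27.3 ± 1.66 over the bound genes without a CpG-island-like TSS. Of the 18, 10 were below the 25th percentile and 1 (ADAMTS9) above the 75th. Median fold enrichment of the members was 16.6, 11.4 and 11.2 in A, B1 and B2, against 33.4, 19.4 and 18.4 for all bound genes, and median peak width was 564.5, 504.5 and 442 bp against 824, 721 and 673 bp. The members' summits held a median of 41.5, 34 and 33 fragments, well above the minimum listed. By subfamily the mean percentile was 37.3 ± 5.66 for the 10 ADAM genes and 18.2 ± 1.02 for the 8 ADAMTS genes. The 3 replicate values did not overlap (33.6 to 43.8 and 17.3 to 19.3), but they are repeated measures of the same genes. Across genes the subfamilies overlapped widely, from 3.73 to 67.2 for ADAM and from 1.66 to 77.1 for ADAMTS.

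The position of the peaks differed as well. The strongest summit was downstream of the nearest TSS in 7, 8 and 8 of the 18 members in A, B1 and B2, a share of 42.6% ± 3.21 (SD, n = 3), against 66.0% ± 0.241 over all bound protein-coding genes. With the 5′ end of the gene record as the only TSS the share became 68.5% and that of all bound genes 75.8%, so the shortfall depended on which TSSs were counted. In every replicate, 9 of the 18 members (50%) had more than 1 separate promoter peak, against 31.9% of bound protein-coding genes. They include ADAM9, ADAM10, ADAM17 and ADAM22, where the peaks lay on either side of a TSS or upstream of it. They also include ADAM11, ADAMTS1 and ADAMTS9, where some lay within 1 kb of a later TSS.

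**Figure D4:**
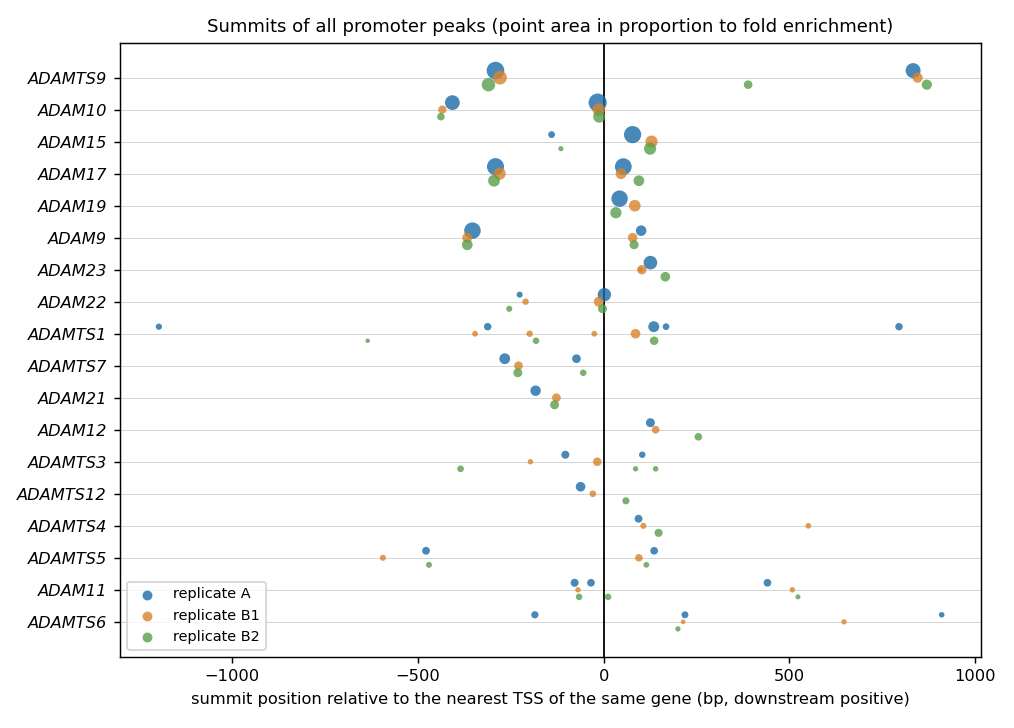
Summits of all promoter peaks of the 18 bound genes by distance from the nearest TSS of the same gene (x axis, bp, downstream positive); colours are the replicates and the area of a point is in proportion to its fold enrichment. The largest points lie upstream at ADAMTS9, ADAM17 and ADAM9, while ADAM19, ADAM23 and ADAM12 carry theirs downstream.

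Within the bound genes, binding was limited to few of the annotated promoters. The 39 genes had 270 distinct TSSs, 1 to 25 per gene, which formed 143 clusters when TSSs within 500 bp were joined. A peak in all 3 replicates was present at 26 clusters, and no cluster had one in only some of them. The bound genes had 73 clusters, of which 47 had no peak. Of the 21 CpG-island-like clusters in these genes 19 were bound, the exceptions being internal TSSs of ADAMTS5 and ADAMTS7, and of the 52 others 7 were. These genes were chosen for having a promoter peak, so the shares do not compare the classes in general. A peak can also count for more than 1 cluster, as at ADAM17. The cluster of the canonical transcript was bound in 17 of the 18 genes, all but ADAM21.

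At unbound genes the nearest listed peak was usually remote. Its distance from a TSS had a median of 93525 bp over the 21 genes, ranging from 1884 bp (ADAM8) to 774501 bp (ADAM2), when the closest replicate is taken. Within 10 kb there was a peak at 4 of them. ADAM8 had one at 1884 to 1921 bp in each replicate. The one present in all 3 (chr10:135075129-135075449 in A) lay beyond the 3′ end of this short gene, with fold enrichments of 16.0, 6.09 and 6.37, and another, upstream of its start, was listed in A and B1 alone at 6.31 and 6.14. With windows of 2 kb ADAM8 counted as bound.

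ADAMTS13 contained a strong peak in an intron (chr9:136282737-136283705 in A) with fold enrichments of 33.3, 22.2 and 19.1, 3214 to 3259 bp from its nearest TSS. Its summits were 78 to 91 bp from the TSS of REXO4, which runs the other way from inside the ADAMTS13 locus. Outside the gene, 4201 to 4313 bp from its nearest TSS, a further peak had 25.7, 10.9 and 12.7 in A, B1 and B2. The summits of that peak were 102 to 117 bp from the TSS of CACFD1. ADAMTS16 carried a small peak over a coding exon (chr5:5146331-5146542 in A) in all 3 replicates, at 8.51, 6.48 and 5.69 and 5750 to 5757 bp from a TSS. At ADAMTS17 a weak intronic peak was listed 3266 bp from a TSS in B1 alone, with a fold enrichment of 3.80, and another in B2 alone, 138168 bp from a TSS, with 4.22. ADAMTS2, whose sequence is shown above, had 1, 3 and 2 intronic peaks in A, B1 and B2, none above 5.80 and all 77910 bp or more from a TSS.

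Members that lie next to each other did not always share their status. ADAMTS1 and ADAMTS5 on chromosome 21, 72.5 kb apart, were both bound, and ADAMTS8 and ADAMTS15 on chromosome 11, the closest pair of ADAMTS genes, were both unbound. On chromosome 14 ADAM21 was bound through the COX16 promoter and ADAM20, 61.9 kb away, was not. On chromosome 8 ADAM9 was bound and ADAM32, which begins 1.54 kb after the end of ADAM9, had no peak, like ADAM18, ADAM2, ADAM28 and ADAM7 on the same chromosome.

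The partners of these proteases were described by a list of 58 genes, of which 33 were bound (56.9%) beside the 60.2% of all protein-coding genes. Of those with a CpG-island-like TSS 32 of 49 were bound, beside 79.5%, and of the rest 1 of 9 (TIMP1), beside 9.59%. A peak in only some replicates was found at 2 genes, ERBB4 and COL1A1.

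By role the counts were small, and none was tested against the backgrounds just given. Among inhibitors, TIMP1, TIMP2, TIMP3 and the membrane-anchored RECK were bound and TIMP4 was not. TIMP3, the TIMP that inhibits ADAM17 and the aggrecanases, had fold enrichments of 17.7, 4.46 and 4.74, and RECK had 50.9, 33.9 and 28.9, above those of every member. The convertases FURIN, PCSK5 and PCSK7, which remove the prodomains that keep many ADAMs inactive, were bound, and PCSK6 was not. All 3 partners that carry ADAM17 to the cell surface (RHBDF1, RHBDF2 and FRMD8) were bound, as were 5 of the 6 tetraspanins that escort ADAM10, with TSPAN33 the exception.

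Of 19 ADAM substrates 13 were bound (68.4%, all 13 among the 18 with a CpG-island-like TSS), beside 60.2% of all protein-coding genes and 79.5% of that class, leaving out NOTCH3, AREG, EREG, TNF, CDH1 and ERBB4. Of 11 ADAMTS substrates 3 were bound (27.3%, all 3 among the 7 with such a TSS), beside the same backgrounds and 9.59% for the other 4, namely VCAN, which encodes the proteoglycan versican, and the fibrillin genes FBN1 and FBN2. The ADAMTS-like genes, which encode proteins of the ADAMTS architecture without a protease domain, had 2 of 6 bound (ADAMTSL1 and ADAMTSL4), although all 6 had a CpG-island-like TSS. The LGI ligands of ADAM22 and ADAM23 had 0 of 4 bound, with 2 of the 4 in the CpG-island-like class.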

How the data were processed

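PHF8 ChIP-seq libraries of SKMEL-147 cells (3 replicates, with 2 input libraries that have no peak list here) were analysed from the deposited peak lists. The methods and labels state that alignment to hg19 (GRCh37) was done with Bowtie2 and that the authors called narrow peaks with MACS for each replicate against input; the submitters' processing notes also name bcl2fastq and Picard. A supplementary legend names the caller as MACS2; exact versions and the treatment of duplicates are not given in the sources used here. The deposited values are the fold enrichment at the summit (a linear ratio over local background, which depends on the depth of each library), the −log10 p-value and −log10 q-value, and a score, which was not used. The lowest −log10 q-values listed were 1.34, 1.32 and 1.43 in A, B1 and B2.

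Windows of 1 kb on either side of every TSS of GENCODE release 44 were intersected with the peaks (minimum overlap 1 bp), leaving out mitochondrial genes and the Y copies of pseudoautosomal genes. The strongest promoter peak of a gene was that of the highest fold enrichment. Fragments at a summit were recovered as the whole number that gives both the deposited fold enrichment and the p-value under a Poisson law, which succeeded for 99.8%, 100.0% and 100.0% of peaks within 0.001 on the −log10 scale. They are not corrected for amplification. The Wilson intervals (95%) were taken on numbers of genes, not of fragments, and cover counting error only. Python 3.11.15, numpy 2.4.6, pandas 2.3.3, scipy 1.17.1 and pysam 0.24.0 were used, and the counting was tested on simulated peaks. Sequences were read from the GRCh37 genome.

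The family, its functional groups and the list of 58 partners were chosen from general knowledge with earlier results of these data known. Every member was named, values were given for all bound members and for unbound ones with a peak within 10 kb, partners were given as counts by role, and the rule for sequences was the 2 strongest and 2 weakest bound members and for the unbound members of the highest CpG ratio, outside chromosome 8. An item that this rule names is not reported here. A single group allowed no comparison between conditions. Alternatives changed the window, peak cutoffs, TSS set, CpG class, the measure of strength and the replicates.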

Additional observations from a re-analysis of the deposited data

How the results depend on the processing

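Over 12 alternatives to the definition of a bound promoter (windows of 500 bp or 2 kb, a q-value below 0.001, fold enrichment above 4, the summit inside the window, a peak in at least 2 replicates, the gene record's 5′ end or canonical transcripts only, peaks nearest to the gene itself, and each replicate left out) 36 of the 39 genes kept their status, 16 bound and 20 unbound. The exceptions were ADAM8, ADAM21 and ADAMTS6, as described. The downstream share of summits moved from 42.6% to 68.5% with the 5′ end of the gene record only, by the change of reference point. Under 3 other definitions of the CpG class, bound ADAMTS genes of that class numbered 5 of 15, 5 of 15 and 6 of 16 and ADAM genes 9 of 13, 9 of 11 and 8 of 11, with 80.8% to 81.1% of protein-coding genes. No paired analysis was possible because there was 1 group of ChIP libraries and no result came from a test. Depth limits the unbound calls, since binding below 8 to 10 fragments at a summit would not be listed.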
